A study of Xenopus laevis with 4 samples.

Results

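The replication origin and fork genes are the parts list of chromosome duplication. They were followed here in RNA captured through a label of new RNA and in total RNA. Both came from Xenopus laevis embryos at the mid-blastula transition. Members were found by a rule on gene names: every row of the deposited count table whose symbol, without its .L or .S ending, named a subunit of the origin recognition complex (ORC), the MCM proteins, GINS, replication factor C (RFC), DNA polymerases alpha, delta or epsilon, primase or Dbf4, or was cdc6, cdt1, cdc45, cdc7, pcna, topbp1, ticrr, recql4 or wdhd1. The rule found 59 rows of 48 symbols among 49078 features, and 58 of them passed the filter on low counts, which kept 26543 features in all. The remaining row, pole3.S, held 0 counts in every library. The rule also took in mcm3ap.L, which encodes an mRNA export factor named after MCM3 and not a subunit of the MCM ring. A polymerase symbol had to carry a digit, so the polymerase epsilon gene pole.L was not a member. It was read in the list of other replication genes below.

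The embryos were collected about 9 hours after fertilization and kept at room temperature. For the EU-RNA group (2 libraries), 1-cell embryos were microinjected with 5-ethynyl uridine (EU), which cells build into new RNA (10 nl at 50 mM), and RNA carrying EU was coupled to biotin and captured on streptavidin beads. The Normal group (2 libraries) was total RNA of embryos described as normal, so maternal and new RNA were measured together. The labels attach the injection text to all 4 samples, but the extraction text gives total RNA to normal embryos. Libraries of both groups were made with a NuGEN Ovation kit designed for RNA of fixed human tissue. Capture and injection therefore differ together between the groups and cannot be told apart. Neither the number of embryos pooled nor their clutch is given in the sources used here, so p-values here reflect variation among these particular libraries, and that variation could be technical.

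In a dividing cell, ORC marks origins in G1, and Cdc6 and Cdt1 then load the ring of MCM2-7 helicase subunits onto DNA. In S phase the Cdc7-Dbf4 kinase and cyclin-dependent kinase, through Treslin (ticrr), TopBP1 and RecQ4, bring in Cdc45 and GINS, and the helicase starts to unwind. Primase and polymerase alpha start the strands, RFC loads the clamp PCNA, and polymerases delta and epsilon extend them. The frog egg stores these proteins and their mRNAs for the rapid cleavage cycles. In Xenopus, RecQ4, Treslin, TopBP1 (Cut5) and Drf1 (dbf4b) have been reported to become limiting for origin firing as the nuclear content of the embryo grows towards the mid-blastula transition. Xenopus also has a separate later-expressed gene for MCM3 (zmcm3) and for MCM6 (mcm6.2, with the synonym zmcm6 in RefSeq).

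Library totals ran from 47598265 to 209445802 estimated counts, and levels below are CPM (counts per 1000000) scaled by TMM. A library with 0 counts allows a level of up to 0.0160 to 0.0675 CPM, depending on its total, counting error only. The 2 replicates of a feature differed by a median of 0.45 on the log2 scale for members in EU-RNA and 0.25 in Normal, against 0.75 and 0.45 over all features tested. With at least 10 CPM in Normal the gap was smaller, at 0.377 and 0.221 for members against 0.446 and 0.228 for all such features. Across the features tested, log CPM correlated at 0.751 between the EU-RNA libraries, 0.876 between the Normal libraries and 0.618 to 0.743 between groups. Marker genes were read in each library. All 4 libraries came from the same stage, so these levels could not tell it from a nearby stage, and the stage label was not tested. The 15 features of early zygotic genes, such as the nodal and siamois genes, summed to 3539 and 3658 CPM in EU-RNA and 822 and 806 CPM in Normal. The 12 features of egg and oocyte genes summed to 2136 and 1946 CPM in EU-RNA and 940.3 and 998 CPM in Normal. That sum was carried by vegt.L and vegt.S, at 1731 and 1491 CPM together against 443 and 503 CPM. The other 10 features summed to 405 and 455 CPM in EU-RNA and 497 and 495 CPM in Normal. RNA of these egg genes was thus present in the captured RNA. No capture without EU was among the 4 libraries, so the part of carried-over maternal RNA in EU-RNA was not tested. Of 8 features marking ovarian follicle and oviduct cells, foxl2.S and cyp19a1.L were at 0 in all libraries, and the whole list summed to 53.8 and 34.5 CPM in EU-RNA against 5.40 and 8.06 CPM in Normal. star.L made up most of this sum, at 32.3 and 24.0 CPM against 1.44 and 4.37 CPM, and 1 of the 4 features tested was higher. The part of these cells in the results was not tested. Of 7 features of later embryonic cell types, 3 globin features were at 0 throughout, and the list summed to at most 5.34 CPM.

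The relative level of most replication genes in captured RNA was within 2-fold of that in total RNA. At an adjusted p below 0.05 over all features (quasi-likelihood test of edgeR), 3 of the 58 tested members were higher in EU-RNA, against 4.69% of all features, and 1 was lower, against 0.889%. The higher ones were zmcm3.L, pcna.L and cdt1.S, and the lower one was orc1.L. DESeq2 called 4 members higher (11.3% of all features) and 4 lower (7.08%), and limma-voom called 3 higher (4.25%) and 2 lower (1.45%). None of these counts was far above the share in the whole table, and zmcm3.L and pcna.L were called in every alternative tried. A log2 fold change within 1 of 0 was seen for 48 members, or 82.8%, and for 52.3% of all features. Among features with at least 10 CPM in Normal, the shares were 88.6% of 44 members and 77.2% of 11302 features. The median log2 fold change was -0.09 over the members and 0.01 over all features. With at least 10 CPM in Normal the medians were in the other order, -0.03 over the members and -0.22 over all features. Scaling by library size only moved the median of all features to 0.28 and that of the members to 0.19. Fold changes are therefore positions relative to the average feature, not amounts of new RNA, and in bulk embryos fewer cells with a transcript cannot be told apart from less transcript per cell. In 8 of the 58 members both EU-RNA libraries were above both Normal libraries, against 26.4% of all features. In 18 of the 58 both were below, against 30.6%.

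**Figure D1:**
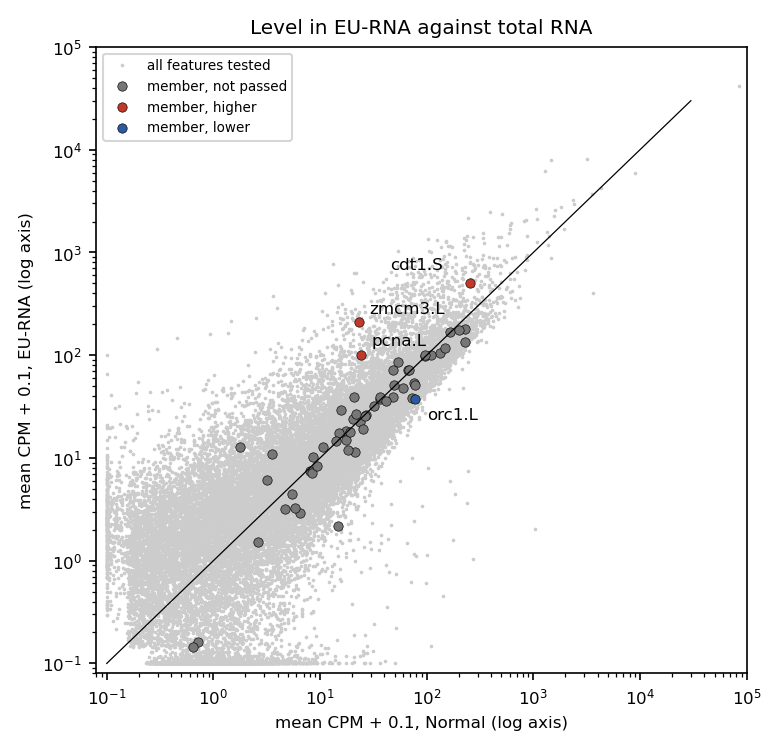
Mean TMM-scaled CPM plus 0.1 in EU-RNA (y axis, log) against Normal (x axis, log), each over 2 libraries; grey dots are all 26543 features tested and large points are the 58 members, red where edgeR called them higher, blue where lower. The members lie mostly along the line of equal level, with zmcm3.L and pcna.L well above it.

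**Figure D2:**
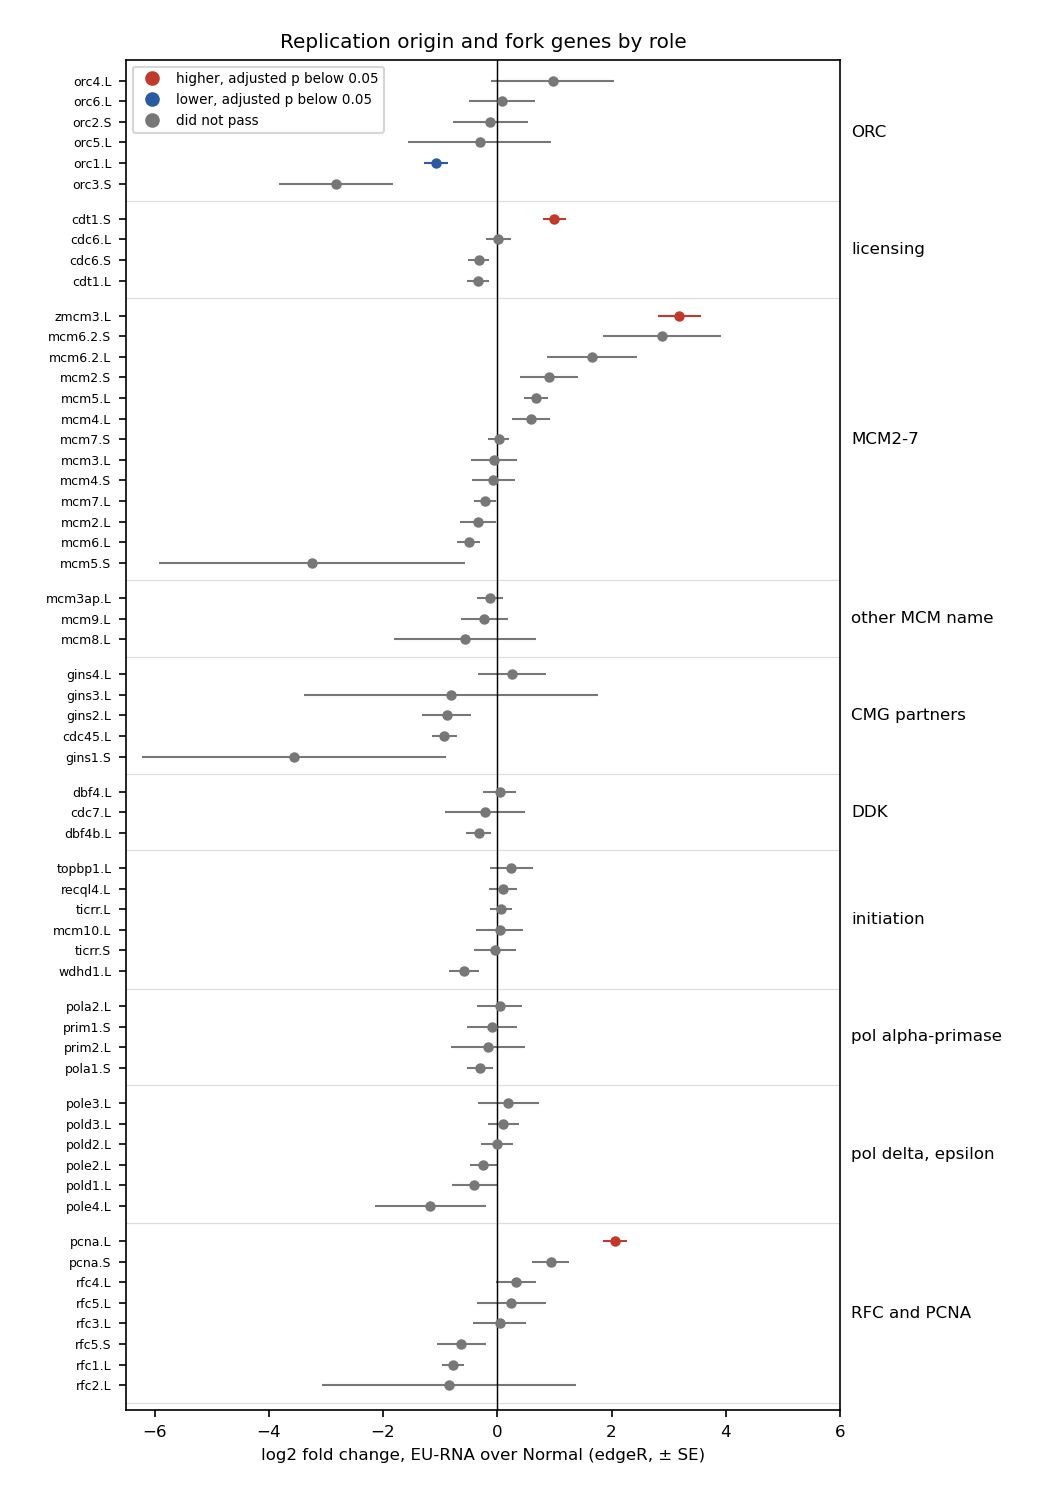
Log2 fold change of EU-RNA over Normal (x axis, edgeR, bars ± SE, 2 libraries a group) for the 58 members tested, grouped by role. Red marks the 3 members called higher and blue orc1.L, the 1 called lower; grey members did not pass.

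Of the 6 ORC genes, 1 was called lower, the gene for the largest subunit, against 0.889% of all features. In 3 of the 6 both EU-RNA libraries were below both Normal libraries, against 30.6% of all features. The median log2 fold change was -0.21. orc1.L encodes the subunit that, with ATP, drives origin binding, and was at 35.2 and 38.9 CPM in the EU-RNA libraries and 77.7 and 77.9 CPM in the Normal libraries. The groups did not overlap, and the Normal libraries were nearly equal. Its mean of 37.1 ± 2.62 CPM against 77.8 ± 0.167 CPM (SD, n = 2) gave a log2 fold change of -1.07 (adjusted p = 0.0432 by edgeR, SE 0.21). The call was lost without Normal replicate 1 (adjusted p = 0.240 by edgeR), without Normal replicate 2 (adjusted p = 0.186 by edgeR) and when only library size was scaled for (adjusted p = 0.103 by edgeR), with log2 fold changes of -1.07, -1.06 and -0.81. orc3.S, another core subunit gene, was at 0.611 and 3.54 CPM against 17.4 and 12.1 CPM. Both EU-RNA libraries were lower, but they differed from each other several-fold. The log2 fold change of -2.83 (SE 1.00) did not pass by edgeR (adjusted p = 0.162) or limma-voom (adjusted p = 0.151). DESeq2 (adjusted p = 0.0205) and edgeR with no filter on low counts (adjusted p = 0.0170) called orc3.S. orc2.S was close between groups, at 7.35 and 7.23 CPM against 7.38 and 8.47 CPM. The genes orc4.L, orc5.L and orc6.L differed several-fold between the EU-RNA libraries, as for orc4.L at 9.33 and 2.68 CPM against 3.15 and 2.98 CPM. Another example is orc5.L, at 7.82 and 0.820 CPM against 4.70 and 5.99 CPM in Normal.

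The licensing factor genes cdc6 and cdt1, whose products load the MCM ring, each have an .L and an .S copy in the table. cdt1.S was at 517 and 494 CPM in EU-RNA and 228 and 277 CPM in Normal. Both EU-RNA libraries were higher than both Normal libraries, and the mean was 2.00-fold higher (505.5 ± 15.6 against 253 ± 35.2 CPM, SD, n = 2), which is a log2 difference of 1.00 (adjusted p = 0.0444 by edgeR, SE 0.20). Its homeolog cdt1.L was at 165 and 198 CPM in EU-RNA and 232 and 228 CPM in Normal. There the EU-RNA libraries were the lower ones, and the log2 fold change of -0.34 (adjusted p = 0.350 by edgeR, SE 0.19) did not pass. With the homeologs summed, cdt1 had a log2 fold change of 0.48 (adjusted p = 0.158 by edgeR) and did not pass. The call of cdt1.S was also lost without Normal replicate 1 (log2 fold change of 0.87, adjusted p = 0.431 by edgeR) and without Normal replicate 2 (1.15, adjusted p = 0.0777 by edgeR). cdc6.L was at 147 and 188 CPM against 183 and 148 CPM, an overlap, and cdc6.S at 102 and 109 CPM against 137 and 127 CPM (log2 fold change of -0.33, adjusted p = 0.352 by edgeR).

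Of the 13 genes of the helicase ring, 1 was called higher, against 4.69% of all features, and the median log2 fold change was 0.02. They held the member with the largest fold change in favour of EU-RNA, and it was the later-expressed form of MCM3. zmcm3.L was at 249 and 174 CPM in EU-RNA and at 16.1 and 30.2 CPM in Normal. The lower EU-RNA library was still several times the higher Normal library. The mean was 9.11-fold higher (211 ± 52.8 against 23.1 ± 9.98 CPM, SD, n = 2), which is a log2 difference of 3.19 (adjusted p = 0.00869 by edgeR, SE 0.38). It stayed between 2.81 and 3.72 with any library left out. mcm3.L, the gene of the MCM3 known from eggs, was at 17.8 and 33.9 CPM in EU-RNA and 29.7 and 24.2 CPM in Normal, so its groups overlapped. Its log2 fold change was -0.06 (adjusted p = 0.957 by edgeR, SE 0.40), with a limma-voom 95% interval of -0.84 to 0.93. Within each library, the counts of zmcm3.L were 14.0 and 5.13 times those of mcm3.L in EU-RNA and 0.542 and 1.25 times in Normal. The mean difference of this ratio between groups was 3.36 on the log2 scale. Lengths do not enter that comparison if they were the same in each library, which is not given.

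The gene pair for MCM6 gave the same order with fewer counts. mcm6.2.S was at 9.18 and 16.0 CPM in EU-RNA and 0.563 and 2.83 CPM in Normal, and mcm6.2.L at 6.38 and 15.2 CPM against 3.51 and 3.31 CPM. In both copies the EU-RNA libraries were above the Normal libraries, but the EU-RNA libraries also differed from each other. The log2 fold changes of 2.88 (SE 1.03) and 1.66 (SE 0.79) did not pass by edgeR (adjusted p = 0.162 and 0.272), nor did 2.16 for the copies summed (adjusted p = 0.0918 by edgeR). DESeq2 (adjusted p = 0.0197) and edgeR with no filter on low counts (adjusted p = 0.0407) called mcm6.2.S, and limma-voom did not (adjusted p = 0.181). mcm6.L, with the synonym mmcm6 for the maternal form, was at 49.7 and 56.6 CPM against 74.1 and 76.2 CPM (log2 fold change of -0.50, adjusted p = 0.202 by edgeR, SE 0.20). The counts of mcm6.2 were 0.313 and 0.551 times those of mcm6.L in EU-RNA and 0.0550 and 0.0805 times in Normal, a mean log2 difference of 2.64. For each of the 2 ratios the groups did not overlap, and the exact permutation test (two-sided, n = 2 a group) gave p = 0.333, adjusted p = 0.333, which is the smallest it can give with 2 libraries a group.

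The other MCM2-7 genes, which encode the remaining ring subunits, did not pass. mcm7.S was nearly constant, at 99.9 and 96.3 CPM in EU-RNA and 98.3 and 94.99 CPM in Normal, and mcm7.L was at 161 and 187 CPM against 190.3 and 215 CPM. mcm5.L was at 90.4 and 80.7 CPM against 49.5 and 57.8 CPM. Its groups did not overlap, and its log2 fold change of 0.67 (SE 0.21) missed the threshold by edgeR (adjusted p = 0.138) and by DESeq2 (adjusted p = 0.0532). When only library size was scaled for, edgeR called mcm5.L higher. mcm2.L, mcm2.S and mcm4.L had EU-RNA libraries far apart, as for mcm2.L at 151 and 81.7 CPM against 136 and 158 CPM and mcm4.L at 93.1 and 51.3 CPM against 44.1 and 51.7 CPM. mcm4.S was at 20.1 and 24.6 CPM against 18.0 and 29.0 CPM, with the Normal libraries the wider apart. mcm5.S was barely detected, with 0 and 17 counts in EU-RNA and 32 and 95 counts in Normal. mcm8.L and mcm9.L, a separate helicase pair that acts in recombination, overlapped between groups, as for mcm8.L at 5.11 and 1.13 CPM against 3.26 and 5.94 CPM. mcm3ap.L also overlapped, at 86.9 and 115 CPM against 100.5 and 121 CPM.

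**Figure D3:**
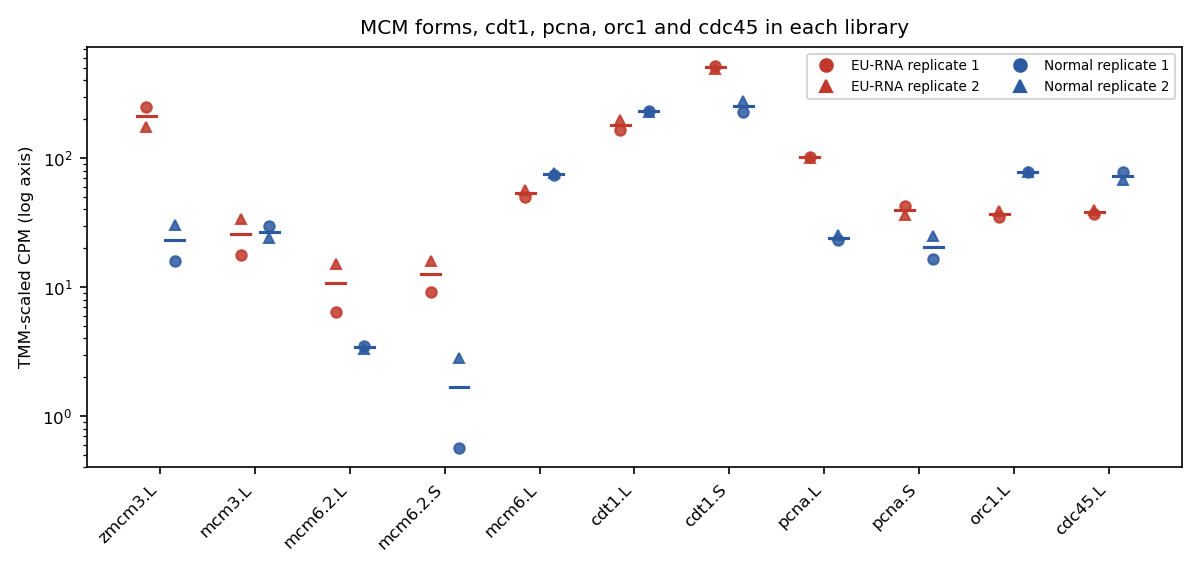
TMM-scaled CPM (y axis, log) in each of the 4 libraries for the MCM3 and MCM6 forms, the cdt1 and pcna copies, orc1.L and cdc45.L; red is EU-RNA, blue is Normal, circles are replicate 1, triangles replicate 2 and lines the group mean. zmcm3.L at 249 and 174 CPM and pcna.L at 102 and 101 CPM lie far above their Normal values, while orc1.L lies below.

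The genes of the helicase partners Cdc45 and GINS, which complete the active CMG helicase, did not pass by edgeR. Of the 5 genes, 3 were below Normal in both EU-RNA libraries, against 30.6% of all features, and 2 overlapped. The median log2 fold change was -0.89, and gins1.S and gins3.L among them had few counts. cdc45.L was at 36.9 and 39.3 CPM in EU-RNA and 78.1 and 67.1 CPM in Normal. Its groups were well separated, and its log2 fold change of -0.93 (SE 0.22) missed the edgeR threshold (adjusted p = 0.0719). It was called lower by DESeq2 (adjusted p = 0.0129) and by edgeR with no filter on low counts (adjusted p = 0.0189). The call was absent with limma-voom (adjusted p = 0.0702) and when only library size was scaled for (adjusted p = 0.159 by edgeR). gins2.L was at 10.3 and 12.5 CPM against 24.8 and 17.4 CPM (log2 fold change of -0.89, adjusted p = 0.269 by edgeR, SE 0.42), without overlap. gins4.L overlapped, at 7.51 and 17.8 CPM against 11.3 and 9.90 CPM. gins1.S and gins3.L were sparse: gins1.S had 0 and 12 counts in EU-RNA and 18 and 128 in Normal, and gins3.L had 244 and 0 counts in EU-RNA and 90 and 561 in Normal. gins3.L and the clamp loader gene rfc2.L, with 0 and 851 counts in EU-RNA, were the 2 members with at least 100 counts in 1 library of a group and none in the other. Of all features tested, 8.34% were split in this way in EU-RNA.

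The genes of the factors reported as limiting at this stage did not pass in either direction. The values are relative RNA levels at the stage sampled. They measure neither protein amount nor change over time, so they do not test that report. topbp1.L was at 29.9 and 18.3 CPM in EU-RNA and 21.0 and 19.7 CPM in Normal. recql4.L was at 60.7 and 83.2 CPM against 72.3 and 62.1 CPM, and both genes overlapped between groups. ticrr.L, the gene for Treslin, was the most even of them, at 72.0 and 71.5 CPM against 68.5 and 68.6 CPM. Its EU-RNA libraries were higher by a small margin, and its log2 fold change was 0.07 (adjusted p = 0.888 by edgeR, SE 0.19). ticrr.S was at 29.7 and 21.0 CPM against 20.3 and 31.8 CPM. dbf4b.L, the gene for Drf1, the Dbf4-related partner that activates Cdc7 in early embryos, was at 46.0 and 48.9 CPM against 63.8 and 55.4 CPM. It was lower in both EU-RNA libraries, with a log2 fold change of -0.33 (adjusted p = 0.440 by edgeR, SE 0.22). The limma-voom 95% intervals of the log2 difference were -0.67 to 1.00 for topbp1.L, -0.39 to 0.73 for recql4.L, -0.39 to 0.52 for ticrr.L, -1.06 to 0.56 for ticrr.S and -0.79 to 0.25 for dbf4b.L. Differences inside these intervals were compatible with the data at 2 libraries a group, so a difference in either direction was not excluded.

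The other kinase and initiation genes did not pass either. cdc7.L, the kinase, was at 8.32 and 5.85 CPM against 10.4 and 6.13 CPM. dbf4.L, its other partner, was at 73.2 and 126 CPM against 91.4 and 102 CPM. mcm10.L, which helps the helicase and polymerase alpha act together, was at 23.2 and 52.2 CPM against 32.6 and 40.8 CPM. All 3 overlapped, and the EU-RNA libraries were wider apart than the Normal libraries for dbf4.L and mcm10.L. wdhd1.L, the gene for And-1, which links polymerase alpha to the helicase, was at 40.4 and 62.7 CPM against 76.9 and 77.4 CPM. It did not overlap, and its log2 fold change was -0.58 (adjusted p = 0.255 by edgeR, SE 0.27).

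**Figure D4:**
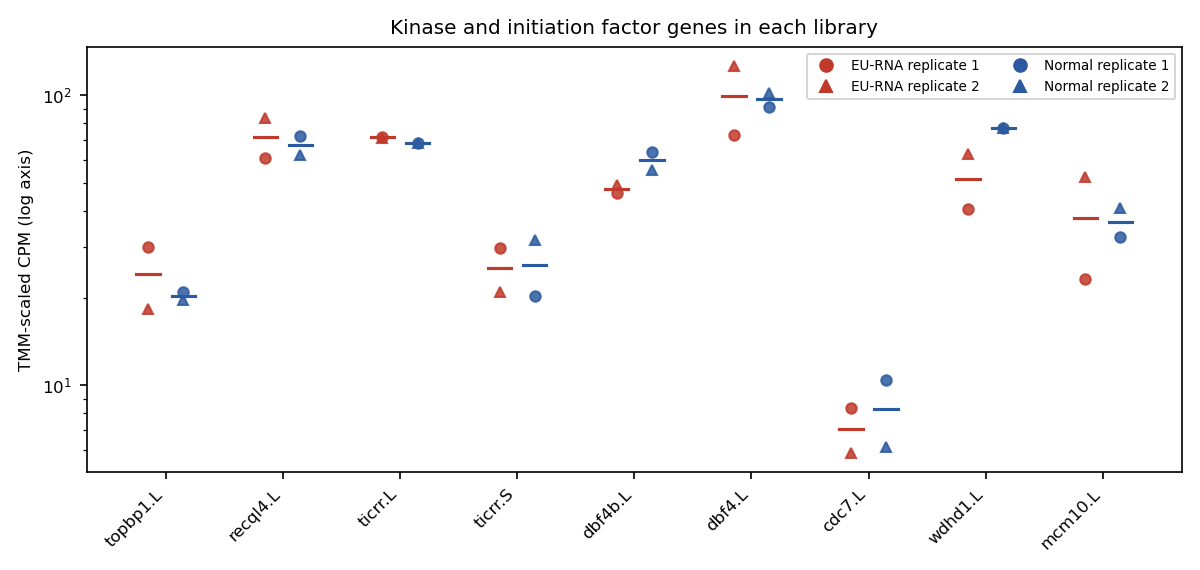
TMM-scaled CPM (y axis, log) of the kinase and initiation factor genes in each of the 4 libraries, where red is EU-RNA, blue is Normal, circles are replicate 1, triangles replicate 2 and lines the group mean. The reported limiting factors topbp1.L, recql4.L and ticrr overlap or nearly coincide between groups, and dbf4b.L and wdhd1.L lie somewhat lower in EU-RNA.

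No polymerase or primase gene among the members passed the test. In the polymerase alpha and primase class, log2 fold changes ran from -0.31 for pola1.S to 0.04 for pola2.L. pola1.S, the catalytic subunit gene, was at 37.7 and 40.0 CPM against 51.3 and 44.6 CPM, and was lower in both EU-RNA libraries. pola2.L was at 58.2 and 43.4 CPM against 31.4 and 67.1 CPM, and the Normal libraries spanned the EU-RNA ones. Among polymerase delta and epsilon members, the range ran from -1.17 for pole4.L to 0.20 for pole3.L, both small histone-fold subunits of polymerase epsilon. pole4.L was at 2.29 and 3.33 CPM against 5.22 and 7.43 CPM, without overlap (adjusted p = 0.555 by edgeR, SE 0.97). pold2.L and pold3.L, accessory subunits of polymerase delta, overlapped between groups, and pole2.L, at 36.4 and 34.3 CPM against 43.4 and 40.2 CPM, did not. pole.L, which the rule left out, was at 42.7 and 60.5 CPM against 61.6 and 77.65 CPM, without overlap. Its log2 fold change of -0.43 (adjusted p = 0.400 by edgeR, SE 0.26) did not pass.

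Of the 8 genes of the clamp and its loader, 1 was called higher, against 4.69% of all features, and it encodes PCNA, the sliding clamp. pcna.L was at 102 and 101 CPM in EU-RNA and 23.3 and 25.1 CPM in Normal. Within each group the libraries were close together, and the mean was 4.19-fold higher in EU-RNA (101.5 ± 1.31 against 24.2 ± 1.29 CPM, SD, n = 2), which is a log2 difference of 2.07 (adjusted p = 0.00580 by edgeR, SE 0.21). Leaving out any library kept it between 2.00 and 2.13. pcna.S was at 42.5 and 36.2 CPM against 16.5 and 24.7 CPM, also without overlap, but its log2 fold change of 0.93 (SE 0.32) did not pass (adjusted p = 0.162 by edgeR). The copies summed were higher by 1.62 on the log2 scale (adjusted p = 0.0103 by edgeR). No gene of the clamp loader passed by edgeR. rfc1.L, the large RFC subunit gene, was at 127 and 138 CPM against 209 and 245 CPM, without overlap. Its log2 fold change of -0.77 (SE 0.19) missed the edgeR threshold (adjusted p = 0.0825). It was called lower by DESeq2 (adjusted p = 0.000289), by limma-voom (adjusted p = 0.0345) and by edgeR with no filter on low counts (adjusted p = 0.0246). Scaling by library size only did not give the call (adjusted p = 0.175 by edgeR). rfc3.L, rfc4.L and rfc5.L overlapped between groups, and rfc5.S was at 13.4 and 10.3 CPM against 19.7 and 17.03 CPM.

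The balance between homeologs was compared because X. laevis is allotetraploid and many genes exist as an .L and an .S copy. Near-identical copies can exchange reads in the authors' estimates, so single-copy values are uncertain in that respect. Of 3457 pairs tested by limma on the log2 ratio of .L to .S counts, 2.31% differed between groups, and of 9 member pairs 1 did. The pair was cdt1. Its .L copy held 24.2% and 28.6% of the pair's counts in EU-RNA and 50.5% and 45.1% in Normal, a log2 difference of -1.36 (SE 0.20, limma adjusted p = 0.0202). The shares were well apart, and the difference was lost as a call without Normal replicate 1 (limma adjusted p = 0.197) and without Normal replicate 2 (limma adjusted p = 0.0892). The largest difference was that of mcm6.2, at 41.0% and 48.8% in EU-RNA and 86.2% and 54.0% in Normal. It came with few counts and did not pass (log2 difference of -1.72, SE 1.18, limma adjusted p = 0.449). For mcm2 the .L share was 79.4% and 81.2% in EU-RNA and 92.7% and 88.6% in Normal (limma adjusted p = 0.0915), and for pcna it was 70.7% and 73.5% against 58.6% and 50.5% (limma adjusted p = 0.182). The pairs mcm4, mcm7 and ticrr overlapped between groups.

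**Figure D5:**
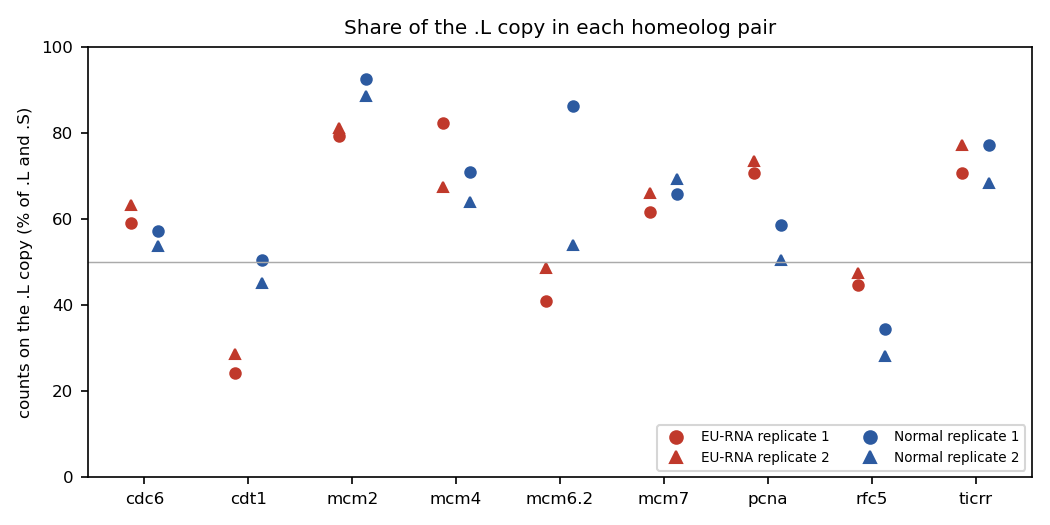
Share of the .L copy in the counts of each of the 9 tested homeolog pairs (y axis, percent of .L and .S counts) in each library; red is EU-RNA, blue is Normal, circles are replicate 1 and triangles replicate 2. For cdt1 the EU-RNA libraries lie at 24.2% and 28.6% and the Normal libraries at 50.5% and 45.1%.

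Many members were listed with a single homeolog. Of the 48 symbols, 11 had rows for both copies (22.9%), 32 had .L alone (66.7%) and 5 had .S alone (10.4%). Over all 15442 symbols with an .L or .S ending the shares were 41.6%, 39.7% and 18.7%. Over the 45 symbols found of the other replication genes below, they were 46.7%, 40% and 13.3%, so single listing was not shared by that list. These are counts of annotated rows and were not tested.

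A list of 48 other replication gene symbols, which act in the same processes but were not in the rule, was read from the same fit. It had 66 rows, 64 of them tested; 8 were higher by edgeR (4.69% of all features) and 0 were lower (0.889% of all features), and the median log2 fold change was -0.01. At an unadjusted p below 0.05, 13 were higher (20.3%, against 12.3% of all features) and 12 lower (18.8%, against 12.3% of all features). DESeq2 called 12 of the 64 higher (11.3% of all features) and 3 lower (7.08%). For limma-voom these were 9 higher (4.25%) and 3 lower (1.45%). slbp.L, named after its values were seen, was called higher by DESeq2 (adjusted p = 0.00137) and limma-voom (adjusted p = 0.0474). It did not pass by edgeR (adjusted p = 0.0869), at 430 and 318 CPM against 209.5 and 203 CPM. The 8 called higher by edgeR included both copies of top2b, a DNA topoisomerase gene. top2b.L was at 114 and 103 CPM against 30.7 and 40.4 CPM, and top2b.S at 103 and 60.1 CPM against 14.8 and 19.2 CPM. top2a.L, the topoisomerase that untangles replicated chromosomes, was at 286 and 328 CPM against 119 and 129 CPM. Both copies of top2b passed with any library left out, whereas top2a.L did not without Normal replicate 1 (adjusted p = 0.0546 by edgeR).

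cdk2.S, which encodes the kinase that triggers S phase with cyclin E, was at 87.1 and 75.9 CPM against 10.7 and 18.8 CPM (log2 fold change of 2.46, adjusted p = 0.0139 by edgeR, SE 0.34). Its homeolog cdk2.L, named after its values were seen, was at 12.3 and 23.1 CPM against 19.1 and 16.1 CPM and overlapped. e2f3.L, an S-phase transcription factor gene, was at 193 and 167 CPM against 42.4 and 56.1 CPM, and its call was lost with the homeologs summed (log2 fold change of 0.67, adjusted p = 0.0866 by edgeR). Its homeolog e2f3.S, named after its values were seen, was lower in both EU-RNA libraries, at 76.1 and 79.7 CPM against 119.6 and 99.3 CPM. The log2 fold change of e2f3.S was -0.49 (adjusted p = 0.200 by edgeR, SE 0.20) and did not pass. lrwd1.L, whose product binds ORC, was at 390.5 and 395 CPM against 106 and 150.4 CPM. kat7.L, a histone acetyltransferase gene tied to licensing, was at 68.6 and 38.7 CPM against 13.1 and 11.97 CPM. cdca5.S, the gene for the cohesin regulator sororin, was at 47.4 and 41.8 CPM against 10.0 and 14.8 CPM, and did not pass without Normal replicate 1 (adjusted p = 0.104 by edgeR).

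Geminin, which binds Cdt1 and blocks re-licensing, did not pass. gmnn.S was at 160.1 and 168 CPM against 138 and 133 CPM, and gmnn.L at 67.7 and 48.3 CPM against 49.8 and 49.9 CPM. gmnn.S was higher in both EU-RNA libraries (log2 fold change of 0.28, adjusted p = 0.426 by edgeR, SE 0.18), and gmnn.L overlapped. The fork protection genes timeless.L, clspn.S and the replication timing gene rif1.S, named after their values were seen, were those DESeq2 and limma-voom called lower. timeless.L was at 35.9 and 43.3 CPM against 73.4 and 101 CPM, without overlap (log2 fold change of -1.14, adjusted p = 0.0616 by edgeR, SE 0.25). Its homeolog timeless.S was at 73.2 and 58.8 CPM against 47.7 and 72.5 CPM and overlapped (log2 fold change of 0.13, adjusted p = 0.840 by edgeR, SE 0.28).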

How the data were processed

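RNA was measured in 2 EU-RNA and 2 Normal libraries. The table that the authors deposited holds estimated counts for each gene as whole numbers, unscaled between libraries. It was made with bcl2fastq and Salmon 0.12.0, per the submitters' processing notes. Salmon splits reads that match several transcripts. The transcript set, the build, length scaling and strand use are not given in the sources used here. No coordinates are printed, and reads of overlapping genes cannot be told apart.

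Counts were rounded and fitted over the whole table with edgeR 4.0.16 in R 4.3.3 (TMM, filterByExpr, quasi-likelihood F-test, group as the only term, Benjamini-Hochberg adjustment, threshold 0.05). SE is the log2 fold change over the square root of F. Levels are not per length. Different genes were therefore set against each other only as count ratios or homeolog shares compared between groups, and as parts of marker sums. Level also served to pick genes to name, below. Homeolog pairs with at least 10 counts per copy and library were tested with limma 3.58.1 on log2 ratios with a pseudocount of 0.5. Alternatives used DESeq2 1.42.0, limma-voom, other scalings and filters, summed homeologs, thinned counts, a replicate block and each library left out. The fits were also run on counts simulated from means and dispersions estimated in these data, with independent replicates. Such a run cannot test whether those assumptions hold for these libraries.

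Named are called members, the reported limiting factors, both forms of MCM3 and MCM6, in each role the genes with the highest level in Normal and the highest and lowest fold change, the 3 pairs that differed most, called genes of the other list and geminin; further genes were chosen after their values were seen. The members and lists were chosen with earlier results of these data known. Replicate numbers are shared between groups, but no label says they pair the samples, and the replicate differences of the groups correlated at r = 0.00326 across 26543 genes, which are not independent. RefSeq (Xenopus_laevis_v10.1) matched 56 of 59 members by symbol and served for synonyms only.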

Additional observations from a re-analysis of the deposited data

How the results depend on the processing

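The calls of zmcm3.L and pcna.L (summed as zmcm3 and pcna) held under all alternatives tried; of the alternatives for single genes and pairs, 555 kept direction and call, 30 passed the threshold newly, 11 lost the call and 36 changed sign. Where a count or a median moved, the cause was not tested. Members called lower numbered 0 with scaling by library size only, 4 with DESeq2, 2 with limma-voom, 4 with no filter, 3 with the replicate block, and 0 to 9 with a library left out. The replicate block added cdc45.L (edgeR adjusted p = 0.04998) and rfc1.L (edgeR adjusted p = 0.0489). Members called higher ranged from 2 to 8 with a library left out. Without Normal replicate 1 or 2 only pcna.L and zmcm3.L were called; without an EU-RNA library the remaining one was assumed to vary like the Normal libraries. Other replication genes called lower numbered 1 with RLE size factors, 3 with DESeq2, 3 with limma-voom, 3 with no filter, 2 with the replicate block and 0 to 16 with a library left out, and those called higher 6 to 14 with a library left out. For homeolog balance, 1 member pair was called with a pseudocount of 5, with at least 100 counts per copy and library, and with the replicate block. The replicate block, in which the shared numbers are not known to pair the samples, moved no other count by over 1.5 times.

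The median log2 fold change of the members was 0.19 with library size only (all features 0.28), -0.17 with limma-voom (all features -0.21), -0.072 with the stricter filter, -0.16 with homeologs summed, -0.11 with counts thinned to the smallest total, -0.10 with the replicate block and -0.23 to -0.024 with a library left out. The members minus all features came to -0.09 as reported, but to 0.04 with limma-voom, 0.13 with no filter, 0.06 with the replicate block, 0.06 when EU-RNA replicate 1 was left out and 0.24 when EU-RNA replicate 2 was. None of the genes that changed sign was called in the reported fit. With library size only, log2 fold changes were 0.22 for mcm3.L, 0.14 for mcm3ap.L, 0.046 for mcm7.L, 0.015 for pole2.L and 0.22 for ticrr.S. With limma-voom they were 0.041 for mcm3.L, -0.17 for pola2.L and -0.19 for pole3.L. With homeologs summed they were 0.48 for cdt1.L, -0.19 for mcm2.S, 0.63 for mcm5.S and 0.010 for ticrr.S, each taking the value of its symbol. With the replicate block dbf4.L was at -0.0083.

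With a library left out, log2 fold changes ran from -0.45 to 0.33 for dbf4.L, -0.55 to 0.69 for gins4.L, -0.65 to 0.28 for mcm3.L, -0.39 to 0.010 for mcm3ap.L, -2.07 to 0.12 for mcm8.L, -0.25 to 1.56 for orc4.L, -0.40 to 0.70 for pola2.L, -0.53 to 0.62 for pole3.L, -0.20 to 0.25 for recql4.L, -12.26 to 0.10 for rfc2.L, which is at 0 in EU-RNA replicate 1, -0.36 to 0.32 for ticrr.S, -0.21 to 0.51 for topbp1.L and -0.10 to 0.39 for gmnn.L. The balance of mcm4 ran from -0.0051 to 1.15 and that of ticrr from -0.23 to 0.41. Counts of mcm5.S, gins1.S and mcm6.2 were low in some libraries, and the part of depth in this was not tested.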
